A study of Mus musculus with 8 samples.

Results

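Melanin synthesis and melanocyte identity were followed through 10 genes chosen by name, Tyr, Tyrp1, Dct, Pmel, Mlana, Slc45a2, Mc1r, Kit, Mitf and Sox10, out of 18540 genes in the count table. All 10 were among the 15147 genes that passed the filter on low counts. RNA had been taken from mouse wound skin after PBS alone (4 control samples) or after 15 days of treatment with Z1C2Z (4 samples), a composite of ZnO2 and CeO2 in the zeolite-like framework ZIF-8, injected around the wound at 100 μg/kg. The titles of the treated samples name no composite and the study's text says only ZCZ, of which it made a pair of versions. The name Z1C2Z was taken from the study's heat maps, whose sample numbers match the titles. The control samples carry the numbers 1, 2, 3 and 5 and the Z1C2Z samples the numbers 1, 2, 4 and 5, and values are given in that order. The study wounded C57BL mice and diabetic db/db mice, which lack a working leptin receptor, but the strain, age and coat colour of the sequenced mice are not given in the sources used here. Each mouse carried a pair of full-thickness wounds on the back, and which samples share a mouse is not given, so p-values measure the spread between these samples. Libraries held 28856790 to 38974888 counts. Z1C2Z-2 and Z1C2Z-4 stood apart with the highest hair follicle marker levels, and control-1 and control-5 with the highest mast cell and skeletal muscle marker levels, so the calls are also given without them.

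Melanocytes of the mouse trunk sit mainly in the hair follicle, where they make melanin while the hair shaft grows. Mitf and Sox10 are the transcription factors that keep melanocyte identity and switch on the pigment genes. Mc1r and Kit are receptors for melanocortin peptides and stem cell factor, and Tyr, Tyrp1 and Dct are the enzymes that turn tyrosine into melanin inside the melanosome, an organelle built on the fibrils of Pmel.

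Of the 10 genes, 8 rose in Z1C2Z-treated wounds and 0 fell by edgeR's quasi-likelihood test at an adjusted p under 0.05, whereas 4.28% of all 15147 genes tested rose and 3.85% fell. The 8 were the 6 genes of melanin production and the melanosome (Tyr, Tyrp1, Dct, Pmel, Mlana and Slc45a2), the receptor Mc1r and the transcription factor Mitf. Each of these 8 had all 4 Z1C2Z samples above all 4 control samples, as did 8.45% of all genes. A log2 fold change over 1 together with the adjusted p was reached by 7 of the 10, all of the 8 but Mitf, and by 2.15% of all genes. Kit and Sox10 did not pass. The median log2 fold change of the 10 was 1.43, against 0.01 for all genes tested. At an unadjusted p under 0.05, 9 of the 10 were higher and 0 lower, and DESeq2 called the same 8. Of all 15147 genes tested, 4248 had an unadjusted p under 0.05 by edgeR, in either direction. DESeq2 called 1206 of these 15147 genes higher and 1539 lower, more than edgeR in both directions. Without Z1C2Z-2 and Z1C2Z-4, or without control-1 and control-5, 0 of the 10 passed the adjusted threshold by edgeR, and 8 and 9 of them had an unadjusted p under 0.05. In the whole table, 0 genes passed in the first of these fits, and 4 were higher and 9 lower in the second. An unadjusted p under 0.05 was reached by 1980 of 15338 and 3755 of 15443 genes. In a bulk sample, more melanocytes and more RNA per melanocyte cannot be told apart.

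**Figure D1:**
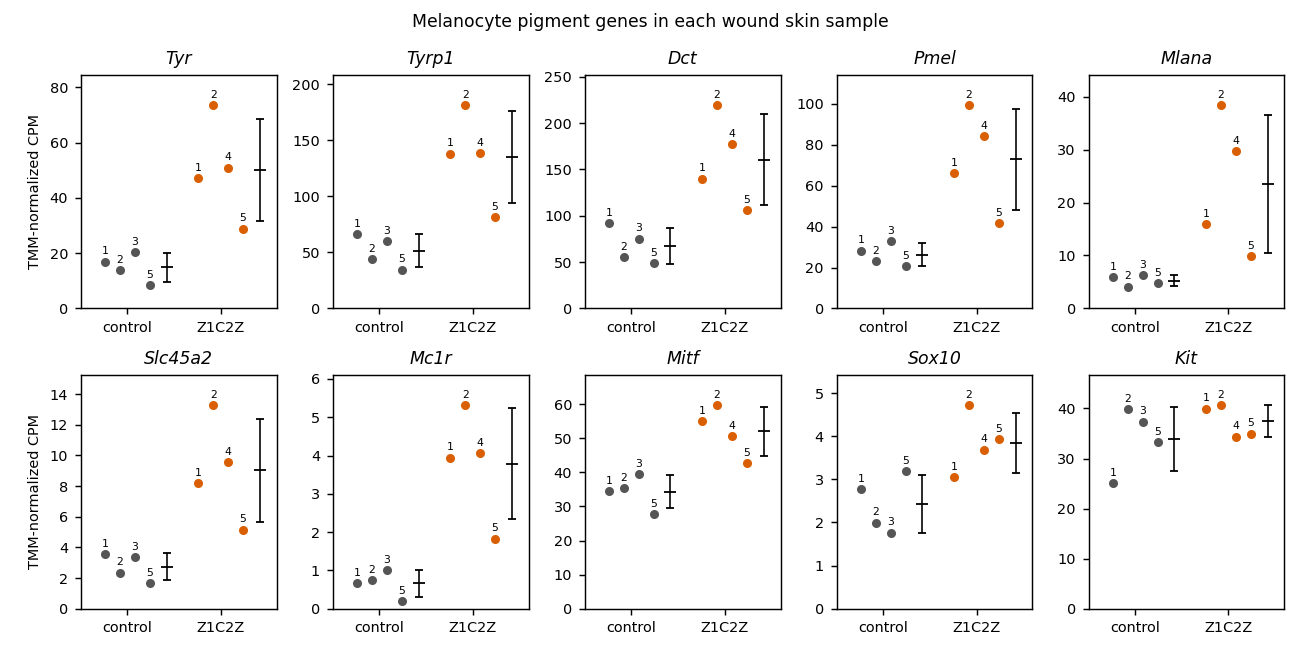
TMM-normalized CPM (counts scaled to library size, y axis, starting at 0 in each panel) of the 10 genes in each control (grey) and Z1C2Z (orange) sample, labelled by its number, with the group mean and SD as bars beside the points. In the panels of Tyr, Tyrp1, Dct, Pmel, Mlana, Slc45a2, Mc1r and Mitf every orange point lies above every grey point, Z1C2Z-2 is the highest and Z1C2Z-5 the lowest of the treated samples, and in the panels of Sox10 and Kit the groups overlap.

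The promoters of the 4 members below are shown because they belong to members that rose and hold the letters CATGTG, which Mitf protein is known to bind. RefSeq windows of 300 bases around the transcription start (build GRCm38.p6) were given for 6 of the 10 genes, namely Tyr, Tyrp1, Dct, Mc1r, Kit and Mitf. The windows lie at chr7:87493463-87493762 on the minus strand for Tyr, chr4:80833963-80834262 on the plus strand for Tyrp1, chr14:118052197-118052496 on the minus strand for Dct and chr8:123406832-123407131 on the plus strand for Mc1r. Capitals mark CATGTG, or its reverse complement CACATG where the motif is on the other strand.
Tyr: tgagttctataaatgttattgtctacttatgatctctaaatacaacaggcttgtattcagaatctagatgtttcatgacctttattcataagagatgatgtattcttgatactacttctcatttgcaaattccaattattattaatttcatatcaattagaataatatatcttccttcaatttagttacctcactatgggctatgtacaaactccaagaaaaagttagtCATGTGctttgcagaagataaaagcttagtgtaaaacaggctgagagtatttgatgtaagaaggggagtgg
Tyrp1: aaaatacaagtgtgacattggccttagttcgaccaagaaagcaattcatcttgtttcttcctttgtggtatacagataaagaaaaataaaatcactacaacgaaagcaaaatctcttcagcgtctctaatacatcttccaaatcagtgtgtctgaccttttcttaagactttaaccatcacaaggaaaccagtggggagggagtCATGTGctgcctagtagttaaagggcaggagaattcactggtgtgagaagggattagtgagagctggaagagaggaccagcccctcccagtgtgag
Dct: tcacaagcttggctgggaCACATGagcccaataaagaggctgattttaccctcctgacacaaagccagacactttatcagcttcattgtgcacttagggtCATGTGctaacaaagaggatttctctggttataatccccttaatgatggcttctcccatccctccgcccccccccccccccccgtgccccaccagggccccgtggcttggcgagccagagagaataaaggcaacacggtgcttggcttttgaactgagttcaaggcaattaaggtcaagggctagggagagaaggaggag
Mc1r: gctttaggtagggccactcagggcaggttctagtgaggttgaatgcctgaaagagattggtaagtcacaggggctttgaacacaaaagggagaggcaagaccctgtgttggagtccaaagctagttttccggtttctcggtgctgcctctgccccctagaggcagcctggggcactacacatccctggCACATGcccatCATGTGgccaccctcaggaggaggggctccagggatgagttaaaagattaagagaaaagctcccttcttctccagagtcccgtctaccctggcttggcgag

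CATGTG on either strand was found in these 4 genes and in none of the 2 windows of Kit or the 3 windows of Mitf. Among all 32851 windows, 14.2% held it. The match began 21 bases before the start in Tyr and 46 bases before it in Tyrp1, at 150 and 232 bases in Dct, and at 51 and 62 bases in Mc1r. Tyr and Tyrp1 carry it inside the same 11 letters, AGTCATGTGCT, which 7 of all windows (0.0213%) hold, and Dct shares the 9 letters TCATGTGCT with both, found in 134 windows (0.408%). These longer stretches were chosen after the sequences were seen. CACGTG, the other form of this E-box, was in no window of the 6 genes and in 7.15% of all windows, and a match to letters does not show binding.

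Tyr encodes tyrosinase, the rate-limiting enzyme of melanin synthesis. Its level was 17.0, 13.8, 20.3 and 8.31 CPM in the controls, and 47.1, 73.6, 51.0 and 28.9 CPM in the Z1C2Z samples. The lowest treated sample thus stood above the highest control, and Z1C2Z-2 was highest of all. The mean went from 14.8 ± 5.10 to 50.2 ± 18.4 CPM (SD, n = 4 each), a 3.38-fold rise with a log2 fold change of 1.76 (SE 0.32, adjusted p = 0.0300 by edgeR's quasi-likelihood test). For Tyr, an exact permutation test (two-sided, on log2 CPM) gave p = 0.0286, the smallest that 4 samples against 4 allow, and the same value for each of the other 7 genes that rose.

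Tyrp1, the tyrosinase-related protein that stabilizes tyrosinase and acts late in black melanin synthesis, was measured at 66.6, 44.2, 60.1 and 34.6 CPM in the controls and at 138, 181, 138 and 81.6 CPM in the Z1C2Z samples. The nearest samples of the groups were control-1 and Z1C2Z-5. Tyrp1 rose 2.63-fold, with a log2 fold change of 1.39 (SE 0.27, edgeR adjusted p = 0.0303).

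Dct, or dopachrome tautomerase, which acts between tyrosinase and the later steps and also marks unpigmented melanoblasts, stood at 91.6, 55.1, 75.4 and 48.7 CPM in the controls and at 140, 219, 177 and 106 CPM in the Z1C2Z samples. Control-1, the highest control, lay just under Z1C2Z-5. The rise was 2.37-fold, on the log2 scale 1.25 (SE 0.26, edgeR adjusted p = 0.0315). Of the 3 enzymes, Dct therefore had the smallest fold change and Tyr the largest.

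Pmel forms the fibrils on which melanin is laid down. Control samples held 28.3, 23.0, 33.1 and 20.5 CPM of Pmel and Z1C2Z samples 66.0, 99.5, 84.4 and 41.8 CPM. Here control-3 was the highest control, and Z1C2Z-5 was again the lowest treated sample. Pmel rose 2.78-fold (log2 fold change 1.48, SE 0.26, edgeR adjusted p = 0.0299). Its locus overlaps Cdk2 and Dgka on the opposite strand in GENCODE's annotation, whose log2 fold changes were 0.05 (edgeR adjusted p = 0.711) and 0.01 (edgeR adjusted p = 0.954).

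Mlana, a melanosome membrane protein that binds Pmel, had 5.90, 4.13, 6.25 and 4.79 CPM in the controls and 15.9, 38.4, 29.7 and 9.81 CPM in the Z1C2Z samples. The controls lay close together while the treated samples spread widely, with Z1C2Z-2 and Z1C2Z-4 far above Z1C2Z-5. The mean went from 5.27 ± 0.980 to 23.5 ± 13.0 CPM (SD, n = 4 each), a 4.46-fold rise (log2 fold change 2.16, SE 0.39, edgeR adjusted p = 0.0299).

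Slc45a2 is a melanosome transporter that sets the organelle's pH. It was low in all samples, at 3.55, 2.36, 3.36 and 1.69 CPM in the controls and 8.18, 13.3, 9.54 and 5.16 CPM in the Z1C2Z samples. It followed the same order of treated samples as Tyr, Pmel and Mlana at the top and bottom, and rose 3.30-fold (log2 fold change 1.72, SE 0.33, edgeR adjusted p = 0.0303).

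Mc1r, the melanocortin receptor that steers melanocytes toward black pigment, was the rarest of the 10 transcripts in the controls. In the Z1C2Z samples its mean of 3.79 CPM was close to that of Sox10 (3.85 CPM). The raw counts were 19, 27, 37 and 7 in the controls and 140, 205, 162 and 66 in the Z1C2Z samples, or 0.675, 0.749, 1.02 and 0.197 CPM against 3.95, 5.31, 4.07 and 1.83 CPM. Control-5, with 7 counts, is measured with large counting error. Mc1r had the largest fold change of the 10, with a 5.71-fold rise (log2 fold change 2.51, SE 0.48, edgeR adjusted p = 0.0303), and 1.05% of all genes had a larger one. It shares its strand and part of its locus with the annotated gene Gm20388, and how the authors assigned shared reads is not given in the sources used here.

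Kit, the receptor for stem cell factor that melanoblasts need to survive and migrate, is also carried by mast cells. It showed 25.2, 39.8, 37.4 and 33.3 CPM in the controls and 40.0, 40.6, 34.4 and 35.0 CPM in the Z1C2Z samples. The groups overlapped, and only control-1 stood apart at the low end. The log2 fold change was 0.14 (SE 0.14, edgeR adjusted p = 0.541, exact permutation p = 0.400), and 31.7% of all genes had a larger one.

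Mast cell markers are given beside Kit, since mast cells carry it. The summed level of the 14 mast cell markers in the table was 369 to 633 CPM in the controls and 229 to 285 CPM in the Z1C2Z samples, with none at 0. Without Il1rl1, a choice made after its values were seen, the other 13 summed to 215 to 340 CPM and 197 to 238 CPM, and the groups overlapped. By edgeR 0 of the 14 rose and 1 fell, Il1rl1, the IL-33 receptor of mast cells and other leukocytes (log2 fold change -2.63, edgeR adjusted p = 0.0232), while the protease gene Mcpt4 had a log2 fold change of -0.23 (adjusted p = 0.504). The list's median log2 fold change was -0.27. At an unadjusted p under 0.05, 0 genes were higher and 4 lower, beside 4248 of all 15147 genes in either direction. DESeq2 called 0 higher and 1 lower. The call of Il1rl1 was lost, leaving 0 calls by edgeR, when control-5 or any of Z1C2Z-1, Z1C2Z-4 and Z1C2Z-2 was left out alone, and 2 markers were called lower without Z1C2Z-5. The part of mast cells in the level of Kit was not tested.

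Mitf, the transcription factor that drives the pigment genes, went from 34.6, 35.4, 39.4 and 27.7 CPM in the controls to 55.0, 59.6, 50.7 and 42.6 CPM in the Z1C2Z samples. All treated samples were above all controls, with a small gap between control-3 and Z1C2Z-5. The rise was 1.52-fold (log2 fold change 0.60, SE 0.14, edgeR adjusted p = 0.0365), the smallest of the 8. Mitf is transcribed from several promoters in many cell types, and counts per gene do not separate its melanocyte isoform.

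Sox10, a neural crest factor of melanocytes and Schwann cells, was at 2.77, 2.00, 1.76 and 3.18 CPM in the controls and at 3.05, 4.72, 3.69 and 3.94 CPM in the Z1C2Z samples. Only control-5 and Z1C2Z-1 were out of order between the groups. The log2 fold change was 0.66 (SE 0.24, edgeR adjusted p = 0.112, exact permutation p = 0.0571), so Sox10 had a larger estimate than Mitf and did not pass. The summed level of 18 Schwann cell markers was 380 to 489 CPM in the controls and 465 to 582 CPM in the Z1C2Z samples, with none at 0. By edgeR 1 of the 18 rose, beside 4.28% of all genes. It was the transcription factor Pou3f1 (log2 fold change 0.81, edgeR adjusted p = 0.0336). At an unadjusted p under 0.05, 6 Schwann cell markers were higher, and DESeq2 called 5, while edgeR called 0 when control-2, control-5, Z1C2Z-1, Z1C2Z-4 or Z1C2Z-2 was left out alone. The median log2 fold change of the list was 0.46, and the part of Schwann cells in the level of Sox10 was not tested.

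Levels can be compared between genes only per length. On the scale of CPM per kilobase of annotated exon (GENCODE M21), Dct was the most abundant of the 10 in the controls, at 30.7 ± 8.89 (SD, n = 4), before Tyrp1 at 18.9 ± 5.37 and Pmel at 12.3 ± 2.62. Neighbours among these 3 overlapped in range, and the lowest Pmel value was above the highest of Kit. Kit (6.46), Mitf (6.44) and Mlana (5.81) followed with nearly the same mean level per kilobase and overlapping ranges. Tyr (2.45) lay below those 3 with no overlap, Slc45a2 (0.919) and Sox10 (0.874) overlapped each other, and Mc1r (0.181) was lowest, below every other gene in every control. In the Z1C2Z samples the order began again with Dct (72.9), Tyrp1 (49.6) and Pmel (34.2), but Mlana (25.9) then had a higher mean than Mitf (9.77), Tyr (8.30) and Kit (7.14), with ranges that overlapped between neighbours. Slc45a2 (3.03) was above Sox10 (1.38) without overlap, and Mc1r (1.04) overlapped Sox10. Together the 10 genes summed to 170 to 272 CPM in the controls and 368 to 758 CPM in the Z1C2Z samples when libraries were scaled by their totals alone.

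Because the members rose by unequal amounts, the raw-count ratio of each of the 45 pairs of members was taken within each library, which removes library size and scaling; this comparison was chosen after the fold changes were seen. The Tyr to Dct ratio was 0.185, 0.250, 0.269 and 0.171 in the controls and 0.336, 0.336, 0.288 and 0.273 in the Z1C2Z samples. The Tyrp1 to Dct ratio was 0.727, 0.802, 0.797 and 0.710 in the controls and 0.986, 0.827, 0.781 and 0.770 in the Z1C2Z samples. The groups were apart for Tyr against Dct by a small margin, and overlapped for Tyrp1 against Dct.

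Relative to Mitf, Tyr was at 0.491, 0.388, 0.515 and 0.300 in the controls and at 0.856, 1.23, 1.01 and 0.679 in the Z1C2Z samples, again without overlap. Relative to Kit, the ratios of Tyr, Pmel, Mlana, Slc45a2 and Mc1r did not overlap between the groups, while those of Tyrp1, Dct and Mitf did. The Mitf to Kit ratio was 1.37 in control-1, within the range of the Z1C2Z samples (1.22 to 1.47), and 0.831 to 1.05 in the other controls. Over all pairs, 20 of 45 had no overlap, each with an exact permutation p = 0.0286, and after Benjamini-Hochberg adjustment over the 45 pairs that was 0.0643, so no ratio passed. That p is the smallest this test allows, so with 20 pairs at it no adjusted value could be lower.

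**Figure D2:**
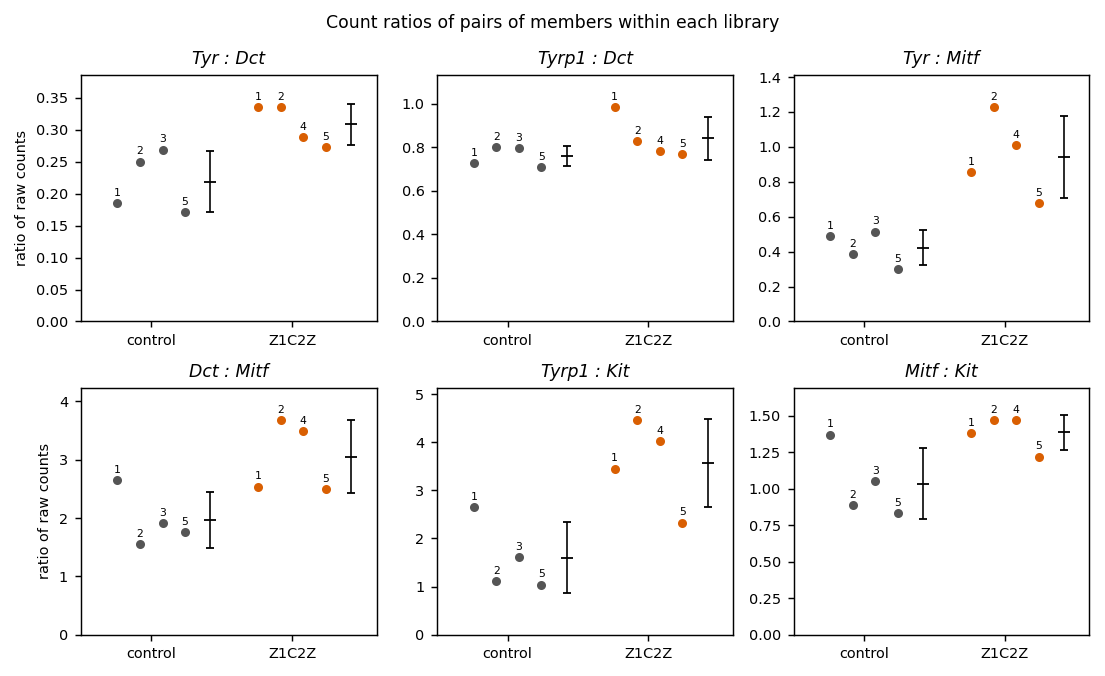
Raw-count ratios (y axis, starting at 0) of 6 pairs of members within each control (grey) and Z1C2Z (orange) library, with the group mean and SD as bars. The Tyr to Dct and Tyr to Mitf ratios are higher in all Z1C2Z libraries than in all control libraries, whereas for Tyrp1 to Dct, Dct to Mitf, Tyrp1 to Kit and Mitf to Kit the groups overlap.

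Beyond the 10 members, 73 genes of the melanosome and melanocyte could be tested out of 75 listed, and 15 rose, 1 fell and 57 did not pass, with a median log2 fold change of 0.14. Of all genes tested, 4.28% rose and 3.85% fell. Asip was not found under that symbol in the count table, and Pomc, the precursor of melanocortins, was below the filter with 0 to 4 counts per library. The genes that rose were unevenly spread over the lists, which is described by counts alone.

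Among 10 genes of melanosome ion transport, 4 rose and 1 fell, with a median log2 fold change of 0.15. Oca2, the chloride transport protein whose loss causes albinism, was at 1.21, 3.25, 3.11 and 0.986 CPM in the controls and at 10.6, 14.9, 10.3 and 5.77 CPM in the Z1C2Z samples (log2 fold change 2.27, SE 0.44, edgeR adjusted p = 0.0303). Gpr143, a melanosome receptor (2.23), the exchanger Slc24a5 (1.83) and its relative Slc24a4 (1.62) also rose on the log2 fold change scale, each at an edgeR adjusted p of at most 0.0303. Tpcn2, a cation channel of lysosomes and melanosomes present in many cell types, fell by 0.54 on the log2 scale (edgeR adjusted p = 0.0395). Atp7a and Ostm1, the most abundant members of that list, had log2 fold changes of 0.06 and -0.12 and did not pass.

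Of 5 other melanocyte-enriched genes, 4 rose, with a median log2 fold change of 1.55. Trpm1, the channel gene that houses a melanocyte microRNA, went from 10.8, 13.0, 15.5 and 7.46 CPM to 40.2, 63.4, 47.5 and 24.1 CPM (log2 fold change 1.91, SE 0.31, edgeR adjusted p = 0.0299). Ptgds (1.87), Syt4 (1.51) and Tspan10 (1.55) rose on the same scale, and the survival gene Bcl2 (0.22, edgeR adjusted p = 0.358) did not pass. In these 4 genes, too, Z1C2Z-2 was the highest treated sample and Z1C2Z-5 the lowest.

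Among 21 biogenesis and trafficking genes, the general machinery of melanosomes, edgeR called 0 in either direction. Of all genes tested, 4.28% rose and 3.85% fell, so a count of 0 in a list this short is near those shares. The list's median log2 fold change was 0.01. At an unadjusted p under 0.05, 3 were higher and 2 lower, beside 4248 of all 15147 genes in either direction. DESeq2 called 1 in each direction. Gpnmb, a Pmel relative that macrophages also express, stood at 0.75 on the log2 fold change scale (edgeR adjusted p = 0.0583), and Cd63, a tetraspanin of late endosomes, -0.47 (adjusted p = 0.0561). Most of these genes serve lysosomes in every cell. In melanosome transport, 2 of 9 genes rose, Mlph (log2 fold change 0.98) and Mreg (0.83), the first being the linker between Rab27a and the motor Myo5a. The list's median was 0.09, and Rab1a and Kif5b, its most abundant genes, had -0.18 and -0.10.

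Among 12 transcription factors known in melanocytes, 4 rose and 0 fell, with a median log2 fold change of 0.40, and 1 was lower at an unadjusted p under 0.05 and by DESeq2. The 4 were Lef1 (1.74), the Wnt effector of hair matrix cells, Tfap2b (1.05), Sox9 (0.82) and Tfap2a (0.49), all of which hair follicle keratinocytes or the dermal papilla express as well. Zeb2, abundant in many cells, had -0.14. In the list of ligands, receptors and pigment switching, 1 of 16 tested genes rose and 0 fell, beside 4.28% and 3.85% of all genes. The gene that rose was Notch1 (log2 fold change 0.66, SE 0.09, edgeR adjusted p = 0.0280). At an unadjusted p under 0.05, 6 genes of the list were higher and 3 lower, and DESeq2 called 5 higher and 2 lower. Cpe and Adam10, the most abundant genes of that list, had log2 fold changes of 0.12 and -0.21.

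The ligands of the members' pathways did not pass by edgeR, although DESeq2 called Edn3 higher. Kitl, the stem cell factor that Kit binds, had 84.7, 90.5, 87.6 and 102 CPM in the controls and 108, 108, 104 and 92.7 CPM in the Z1C2Z samples (log2 fold change 0.18, edgeR adjusted p = 0.227). Edn3, the endothelin that melanoblasts need, stood at 0.91 on the same scale (edgeR adjusted p = 0.0563), and its receptor gene Ednrb 0.18 (adjusted p = 0.541). All of these genes lie outside the naming rule. Kitl, Edn3 and Ednrb are named because they bind to or with the receptors described, and Hgf and Fgf2 because DESeq2 called them.

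**Figure D3:**
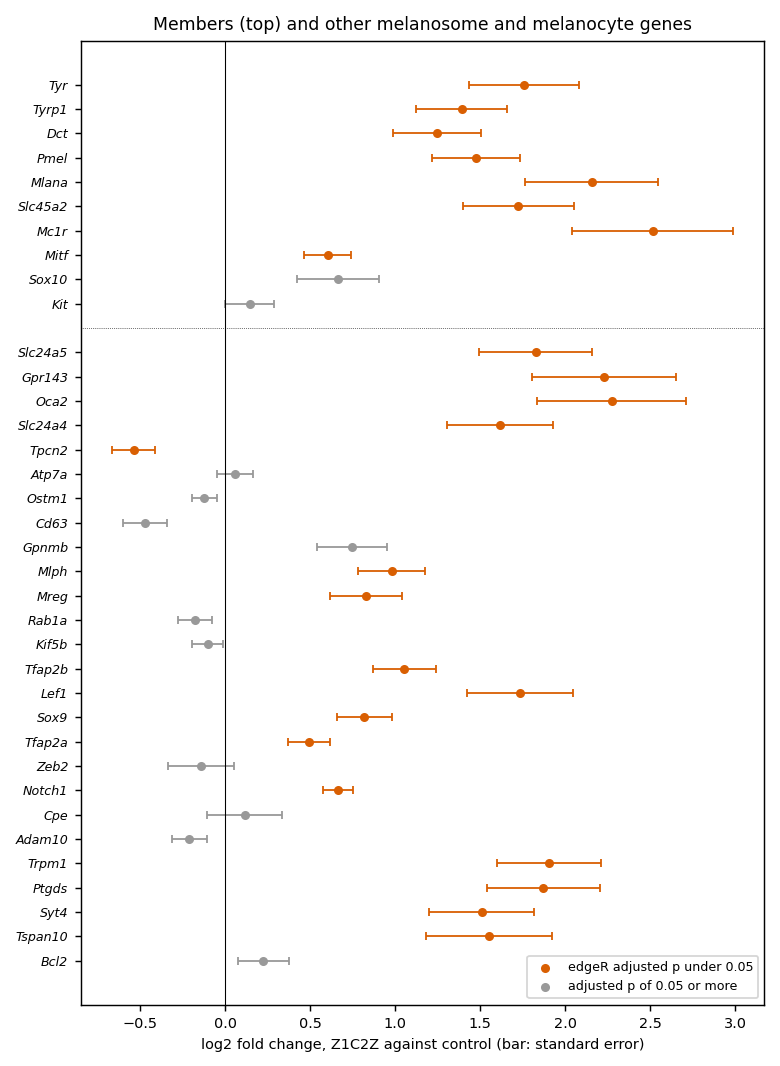
Log2 fold change of Z1C2Z against control (x axis) with its standard error for the 10 members (above the dotted line) and 26 other melanosome and melanocyte genes, in orange where edgeR's adjusted p was under 0.05. Of the members, all but Sox10 and Kit are orange, and Tpcn2 is the only orange gene left of 0.

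Hair follicle genes moved with the pigment genes. Of 17 hair matrix and shaft markers 15 rose by edgeR, beside 4.28% of all genes tested, with a median log2 fold change of 3.33. Their summed level was 122 to 493 CPM in the controls and 579 to 4192 CPM in the Z1C2Z samples. Examples are the hair keratins Krt35 (log2 fold change 2.47, edgeR adjusted p = 0.0306) and Krt85 (2.70, adjusted p = 0.0319) and the matrix factor Msx2 (2.09, adjusted p = 0.0299). Of 10 inner root sheath markers 7 rose, with a median of 2.55 and a summed level of 651 to 3845 CPM against 4680 to 15723 CPM. By DESeq2, 16 hair matrix and shaft markers and 10 inner root sheath markers were called higher. Both counts were 0 by edgeR when control-2, control-5, Z1C2Z-1, Z1C2Z-4 or Z1C2Z-2 was left out alone, and without either pair of samples that stood apart, and without control-1 alone the inner root sheath count was 3. No marker of either list was at 0 in any library. The part of hair follicle content in the level of the pigment genes was not tested.

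The treated samples kept the same order in the pigment genes and in both hair lists. As a mean log2 CPM, the 6 pigment genes Tyr to Slc45a2 were at 6.19 in Z1C2Z-2, 5.80 in Z1C2Z-4, 5.48 in Z1C2Z-1 and 4.84 in Z1C2Z-5, and the hair matrix and shaft list was at 7.35, 7.19, 6.12 and 4.67 in the same samples. Among the controls the order differed. Control-3 was highest in both, but control-1 had the lowest mean for hair matrix and shaft (1.67) beside a mean of 4.32 for the pigment genes, almost that of control-3 (4.33). Control-2 stood higher than control-1 for hair (3.38) and lower for pigment (3.82).

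**Figure D4:**
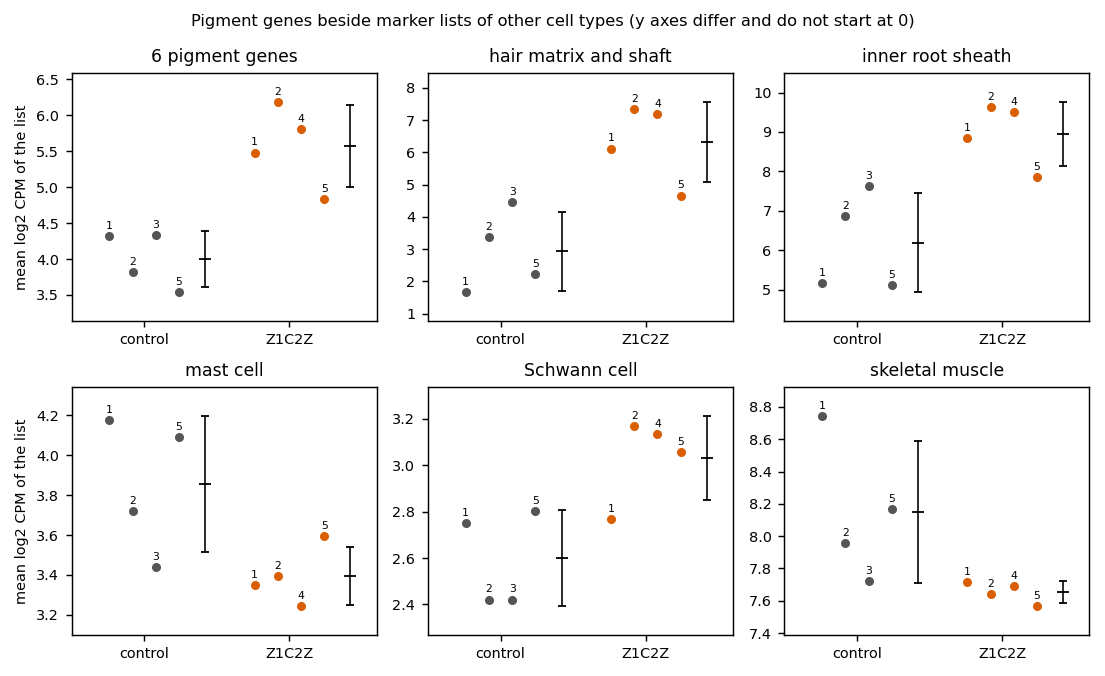
Mean log2 CPM (y axis, log scale, not starting at 0 and differing between panels) of the 6 pigment genes and 5 marker lists in each control (grey) and Z1C2Z (orange) sample, with the group mean and SD as bars. Z1C2Z-2 is highest and Z1C2Z-5 lowest of the treated samples in the pigment, hair matrix and inner root sheath panels, while control-1 is high for pigment genes and lowest for hair matrix markers.

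Other cell types gave smaller differences. Their counts stand beside 4.28% of all genes called higher and 3.85% called lower by edgeR. Of 15 skeletal muscle markers 4 fell by edgeR's test, 7 were called lower by DESeq2 and 8 were lower at an unadjusted p under 0.05, with a summed level of 4424 to 8500 CPM in the controls and 3922 to 4302 CPM in the Z1C2Z samples. Dermal papilla markers summed to 251 to 283 CPM and 284 to 309 CPM, with 4 of 14 called higher and 1 lower by edgeR and 5 and 1 by DESeq2. The muscle and dermal papilla counts by edgeR were 0 in the same fits in which both hair counts were 0. Epidermal keratinocyte markers (12570 to 15192 CPM against 14022 to 19679 CPM) and macrophage markers (2859 to 3307 CPM against 1703 to 2893 CPM) had 0 calls in either direction by edgeR; 1 keratinocyte marker was higher at an unadjusted p under 0.05 and by DESeq2, and 4 macrophage markers were lower at an unadjusted p under 0.05 and 0 by DESeq2. Their part in the pigment gene result was not tested.

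The genes whose pattern over the 8 samples was most like the mean of the 6 pigment genes were found by Pearson's r of log2 CPM. Each of the 6 was compared with the mean of the others, so no gene was part of its own pattern. The r was 0.966 for Mlana to 0.997 for Slc45a2. Outside the 6, Mc1r (0.963) and Mitf (0.960) were close, Sox10 (0.656) less so and Kit (0.323) least. The 10 genes outside the members with the highest r were Acsm3 (0.997), a mitochondrial acyl-CoA synthetase, the translation inhibitor Pdcd4, the iron reductase Cybrd1, Gpr143, Ralgps2, Slc35g1, Lhfpl1, Kazn, Syt4 and Dnajc6 (0.986). Of these, Gpr143 and Syt4 are on the melanocyte lists above and none is on a hair marker list. The hair matrix and inner root sheath lists hold only 17 and 10 tested genes, so their absence does not set the pigment pattern apart from hair. The groups differ in the pattern itself, so any gene with a similar group difference has a high r, and 669 of 15137 genes were above 0.9. All 10 were again the closest with a prior count of 0.5 in place of 2. By Spearman's rank correlation only 1 of them was in the closest 10, but ranks of 8 samples tie often. Acsm3, Slc35g1 and Syt4 each had a rho of 1, the highest possible, so this overlap depends on how ties were ordered.

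The calls rest on few samples, and so do those of the whole table. With control-2 or control-5 left out, or with Z1C2Z-1, Z1C2Z-4 or Z1C2Z-2 left out, each alone, there were 0 of the 10 members past the adjusted threshold by edgeR, although 8 or 9 of them had an unadjusted p under 0.05 in each of these fits; without control-1, control-3 or Z1C2Z-5 the count was again 8. The count was also 0 with the skeletal muscle score as covariate, where 9 had an unadjusted p under 0.05. That score, a mean log2 CPM, was 7.722 to 8.746 in the controls and 7.566 to 7.716 in the Z1C2Z samples. The groups did not overlap in it, so this fit cannot fully separate the score from the treatment. Of all genes, 0 passed without control-5, Z1C2Z-1, Z1C2Z-4 or Z1C2Z-2. Without control-2, 25 were higher and 98 lower, and with the covariate 5 and 16. An unadjusted p under 0.05 was reached by 3100 of 15238 genes without Z1C2Z-4 to 4208 of 15247 without Z1C2Z-1, the extremes of these fits. Of the melanosome and melanocyte genes beyond the members, 1 was called higher without control-2 and 0 in the other fits that left 0 members, against 15 with all samples. The smallest adjusted p of any gene with all samples was 0.0232, and those of the 8 members lay between 0.0299 and 0.0365 by edgeR. The 8 genes that rose kept their direction in all alternatives that gave them a value, with a log2 fold change of 1.36 to 1.95 for Tyr, 2.09 to 2.82 for Mc1r and 0.47 to 0.69 for Mitf.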

How the data were processed

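Read counts for 18540 genes were used as deposited, with no normalization by the authors. The aligner, counting program, genome build and strand setting are not given in the sources used here, although the labels describe ribosomal RNA depletion and dUTP in the second strand. Groups come from the sample titles (con, and a second word for the treated samples), and the name Z1C2Z was inferred by matching the numbers in those titles to the sample names in the study's heat maps, since its text says only ZCZ. Unused per-sample columns numbered 0. Totals were 28856790 to 38974888 counts, so a gene with 7 counts in a library carries large counting error.

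Counts were filtered with filterByExpr (15147 genes), scaled by TMM and tested with edgeR 4.0.16's quasi-likelihood test in R 4.3.3 over all genes, with Benjamini-Hochberg adjustment and a call at an adjusted p under 0.05. An exact permutation test (two-sided, 70 arrangements of 4 samples against 4) was added gene by gene. Mean log2 CPM used a prior count of 2. Exon lengths and overlapping genes came from GENCODE M21, matched by symbol, and promoter windows from RefSeq (GRCm38.p6), matched by gene identifier. Motifs were searched with Python 3.11.15. The edgeR and DESeq2 fits were also run on simulated counts with 200 genes changed, and the permutation test was checked on a made-up example. The simulated samples were drawn independently, and the other steps were not tested in this way.

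The text names the 10 members, the called genes of each pathway list (at most 6) and the most abundant 2, up to 4 called genes and the most abundant 2 of each cell type list, and the 10 genes most like the pigment pattern; genes outside this rule are marked as such where they appear. Some genes of the rule are given only through their list. The members and lists were chosen with earlier results of these data known. Alternatives were DESeq2 1.42.0, RLE scaling, other count filters, a replicate block, a skeletal muscle covariate, and samples left out singly and as a pair. No 2 libraries agreed within sampling noise (the smallest chi-square per degree of freedom was 21.0).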

Additional observations from a re-analysis of the deposited data

Results flagged for a closer look

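In 72 groups of 4 samples looked at, over the genes named from the members and pathway lists, 2 had a sample far from the others by Dixon's ratio, the gap to the nearest sample divided by the group's range (chance puts about 1 of 20 groups past the critical value for 4 samples). For Mlph, the melanosome linker protein gene, Z1C2Z-5 was lowest of the treated samples at a log2 CPM of 2.11, against 2.67 for the nearest (ratio 0.937). For Tfap2b, a transcription factor gene of the neural crest and skin, Z1C2Z-5 was lowest at 5.23, against 5.62 (ratio 0.887). Z1C2Z-5 was also the lowest treated sample for the 8 members that rose, and no group of any member passed the ratio.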

How the results depend on the processing

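The count of 8 members called higher was again 8 with DESeq2, RLE scaling and no low count filter, and 7 with at least 10 counts in every sample (which drops Mc1r) or with a log2 fold change over 1. With the skeletal muscle score as covariate it was 0, without Z1C2Z-2 and Z1C2Z-4 together 0, and without control-1 and control-5 together 0, and with each sample left out in turn it was 0 to 8. Of all genes tested, 5 were higher and 16 lower with the covariate, a score that did not overlap between the groups. Without the first pair 0 passed, and without the second 4 were higher and 9 lower. The count of 15 pathway genes called higher was 0 under each of those 3 settings and 0 to 19 with each sample left out, and the count of 1 called lower was 5 with DESeq2, 0 under the 3 settings and 0 to 2 with each sample left out. Fits without samples have fewer of them, and the cause of each lost call was not tested. With the sample number as a replicate block, 5 members and 8 pathway genes were called higher and 0 pathway genes lower, but the numbers did not pair the samples: deviations from the group means correlated at -0.10, -0.06 and 0.32 for numbers 1, 2 and 5, and 2 of 6 samples correlated best with their own number in the other group. Directions turned only for genes near 0: Kit (-0.13 with the muscle covariate, -0.0487 without control-1 and control-5), Atp7a (-0.0176 without control-1 and control-5, -0.0236 to 0.11 with each sample left out), Zeb2 (0.16 without Z1C2Z-2 and Z1C2Z-4) and Cpe (-0.0772 with the replicate block, -0.20 without Z1C2Z-2 and Z1C2Z-4, -0.0628 to 0.32 with each sample left out), all on the log2 scale and none past the threshold. At this depth Mc1r, with 7 to 37 counts in the controls, is the member whose fold change is least precise.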

Other observations

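Some genes around the melanocortin pathway are given here as values, chosen after they were seen. Pcsk1, a protease that processes the melanocortin precursor, had a mean of 0.478 ± 0.119 CPM in the controls and 1.44 ± 0.742 CPM in the Z1C2Z samples (SD, n = 4 each, log2 fold change 1.59, edgeR adjusted p = 0.0534). Corin, a dermal papilla protease that limits the action of Asip, stood at 0.80 on the log2 scale (edgeR adjusted p = 0.0897). Slc7a11, the cystine transporter of yellow pigment synthesis, was at 37.0 ± 14.7 CPM in the controls and 25.9 ± 4.10 CPM in the Z1C2Z samples, with groups that overlapped (log2 fold change -0.52, edgeR adjusted p = 0.263). Pax3, an upstream regulator of Mitf, was at 1.09 ± 0.704 and 1.72 ± 0.273 CPM (log2 fold change 0.66, edgeR adjusted p = 0.375). None of these 4 genes passed by edgeR, while DESeq2 called Pcsk1 and Corin higher.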
